A study of Homo sapiens with 14 samples.

Results

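The RNF and MARCH genes encode ubiquitin ligases with a RING or a variant RING (RING-CH) domain. They were followed here through a pooled CRISPR interference screen for the delta opioid receptor (DOR). Guides were taken when the gene symbol in their name was RNF or MARCH followed by a number, with an optional letter for RNF. This gave 520 of the 91463 guides in the 6 compared sublibraries. They fell into 104 of 18116 targets, a target being all guides with 1 symbol and 1 start label, and belonged to 93 of 16684 genes. Of these genes 82 were RNF (91 targets) and 11 were MARCH (13 targets). Sublibrary H3 held 480 of the guides, H2 held 30 and H7 held 10. Every target had 5 guides, and all 520 guides passed the minimum of 50 counts in either library.

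The cells were HEK293 FLP-In, a human embryonic kidney line with 1 docking site for transgenes, carrying a fusion of DOR with the peroxidase APEX2, and the repressor dCas9-KRAB-BFP from an expanded clonal population. All groups shared the same treatment: transduction with the genome-wide library hCRISPRi-v2-top5, puromycin, 8 days of growth and 10 µM of the enkephalin analogue DADLE, an agonist of DOR, for 90 minutes. Intact cells were reacted with Amplex UltraRed and hydrogen peroxide, which APEX2 turns into a fluorescent product, and the top and the bottom quartile of fluorescence were collected. The groups are the top and bottom quartiles of each sublibrary, with 1 library per group, and no group without agonist or without a sort was analysed here.

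A RING ligase holds a ubiquitin-charged E2 enzyme beside a substrate and promotes transfer of ubiquitin to it. Ubiquitin on the cytoplasmic face of a membrane protein can mark it for sorting into the vesicles of late endosomes and so for breakdown in lysosomes, and many MARCH and some RNF ligases span membranes and act on such proteins. DOR is known for moving to lysosomes after prolonged agonist.

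Guides act near gene starts, so the stretch upstream of the RefSeq start is shown for the 3 genes that were called (build GRCh38.p14, plus strand, 5′ to 3′, CG dinucleotides in capitals). For RNF167 it is the whole stretch between its start and the start of the opposite-strand gene SLC25A11, at chr17:4940047-4940091. For RNF10 it is chr12:120534206-120534355 and for RNF214 chr11:117232521-117232670. The guides' own sequences were not used here, and their positions were not placed on these stretches, since the sources used here do not name the build of the guide names.
RNF167: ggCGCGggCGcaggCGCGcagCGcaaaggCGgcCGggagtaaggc
RNF10: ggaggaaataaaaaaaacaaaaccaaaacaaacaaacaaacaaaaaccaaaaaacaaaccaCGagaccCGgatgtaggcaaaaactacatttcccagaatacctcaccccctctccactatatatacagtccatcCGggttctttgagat
RNF214: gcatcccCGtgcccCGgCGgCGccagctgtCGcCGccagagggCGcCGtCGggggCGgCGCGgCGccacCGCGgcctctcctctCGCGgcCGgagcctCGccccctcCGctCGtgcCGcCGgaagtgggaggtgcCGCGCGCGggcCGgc
The RNF214 stretch held 28 CG dinucleotides in 150 bases, against a median of 7 over the windows of the same length before 35116 RefSeq starts, of which 89.1% held at least 1 CG and 1.18% held as many. The RNF10 stretch held 3, and 68.6% of the windows of its length held as many. It was 38.7% G or C, against a median of 60%, with runs of adenine. The RNF167 stretch held 8 CG in 45 bases, against a median of 2 in windows of that length, of which 72.6% held at least 1 CG and 7.09% held as many. The CG pair reads the same on both strands.

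The 6 libraries with member guides held 26846847 to 34636612 counts, and member guides had a median of 1619.5 counts in the bottom and 1857.5 in the top libraries. Their counts ran from 50 to 4924. Each guide's value was log2(top/bottom), a difference on the log2 scale, set to 0 at the non-targeting median of its sublibrary, so that a positive value means more of the guide in bright cells. In H3 the 290 non-targeting guides had an SD of 0.215 and ran from -0.68 to 0.83, with their central 95%, called the non-targeting range below, between -0.42 and 0.40. The SD expected from counting alone was 0.0493 at the median member guide. SDs below are over the 5 guides of a target. Guides are not replicates of the sort, so no difference has a replicate check and no p-value is given. A target was called when its mean lay at least 0.5 from 0 (1.41-fold) with at least 80% of its guides on that side.

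Across the families most values lay near 0. RNF167 and RNF10 were higher in the top quartile and RNF214 was higher in the bottom quartile, while the other 101 targets were not called. The 2 targets called in top are 1.92% of the 104, against 1.66% of all targets. The 1 target called in bottom is 0.962%, against 0.894% of all targets. In H3, which held all 3, the same rule called 2.11% of targets in top and 1.41% in bottom. Either call was made for 2.55% of all targets. The share of called members was thus near the background in both directions. The median over member targets was 0.02, with quartiles of -0.06 and 0.11, and the median over all targets was 0.01, with quartiles of -0.08 and 0.10. Of the members 57 lay above 0 and 47 below, 57 lay within 0.1 of 0, 90 within 0.2 and 101 within 0.3. No member lay between 0.3 and 0.5 on either side. The called values just inside the threshold were 0.55 for RNF10 and -0.72 for RNF214, and the values nearest to it outside were 0.30 for MARCH3, 0.29 for RNF4 and 0.28 for RNF146.

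RNF167 is a transmembrane ligase of endosomes and lysosomes with a protease-associated (PA) domain on the luminal side. Its 5 guides had 778, 506, 931, 1195 and 799 counts in the bottom library and 3242, 1602, 2711, 2504 and 1993 in the top library, in the same order. Every guide had more counts in the top library, and no guide's ratio overlapped those of non-targeting guides. The 5 log2 ratios were 1.86, 1.46, 1.35, 0.87 and 1.12, all above the highest of the 290 non-targeting guides, as was so for all guides of 0.116% of all targets. Their mean was 1.33 ± 0.37 (SD, n = 5 guides), which is 2.52-fold more of the guides in the top quartile, and it ranked 13 of 3323 targets in H3 and 47 of 18116 in all. Guide names place them from 4843932 to 4844331, over 399 bases. SLC25A11, the mitochondrial carrier of oxoglutarate, starts 46 bases away on the other strand, and its guides, the nearest 715 bases from those of RNF167, lie in H4, for which no ratio was computed. The part of SLC25A11 in the RNF167 value was not tested.

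RNF214, a RING protein grouped with the other RNF genes, was the only member called in the other direction. Its 5 guides had 1855, 1374, 2427, 2978 and 1171 counts in the bottom library and 1477, 861, 1932, 1951 and 727 in the top library. All 5 thus had fewer counts in the top library, although that library was the deeper of the pair. Their log2 ratios were -0.52, -0.87, -0.52, -0.81 and -0.88. All lay below the non-targeting range, as did all guides of 0.171% of all targets, and 3 lay below the lowest non-targeting guide. The mean was -0.72 ± 0.18 (SD, n = 5 guides), which is 1.65-fold more of the guides in the bottom quartile, and it ranked 29 of 3323 from the bottom in H3 and 78 of 18116 in all. The opposite-strand gene PCSK7, a proprotein convertase, starts 598 bases away with its nearest guide 260 bases from one of RNF214, and its own value in H2 was -0.05 ± 0.32 (SD, n = 5), not called.

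RNF10 ubiquitinates proteins of the small ribosomal subunit. Its guides had 412, 1998, 393, 1434 and 1898 counts in the bottom library and 1105, 3173, 354, 3281 and 2849 in the top library. The guides disagreed: 4 had more and 1 had fewer in the top library. The log2 ratios were 1.23, 0.47, -0.35, 1.00 and 0.39, of which 3 lay above the non-targeting range. The mean was 0.55 ± 0.61 (SD, n = 5 guides), or 1.46-fold toward top, with the widest SD of the 104 targets, and it ranked 68 of 3323 in H3. The call was lost with the median over guides (0.47) and without the guide farthest from 0 (0.38). RNF10 had no other gene's compared start within 1000 bases.

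The other PA-domain transmembrane ligases were not called, where either call was made for 2.55% of all targets. At that share small groups, here and below, would often hold no call. The 9 targets of the group had a median of 0.13, with 5 above 0 and 4 below. RNF13, an endosomal and lysosomal ligase and a close relative of RNF167, had 684, 2100, 1952, 831 and 1844 counts in the bottom and 901, 2380, 3075, 1396 and 2337 in the top library. Those log2 ratios were 0.20, -0.02, 0.46, 0.55 and 0.15, with a mean of 0.27 ± 0.23 (SD, n = 5), and 2 of them lay above the non-targeting range. RNF128 (GRAIL), known for its part in T cell anergy, stood at 0.22 ± 0.26, RNF130 (Goliath) at 0.20 ± 0.30 and RNF149 at 0.13 ± 0.33. RNF150 stood at -0.01 ± 0.22, RNF148 at -0.09 ± 0.16 and RNF133 at -0.15 ± 0.17. RNF43, which removes Frizzled receptors of the Wnt pathway from the cell surface, had all 5 guides below 0, from -0.37 to -0.04, and a mean of -0.16 ± 0.13. The 8 uncalled relatives of RNF167 therefore spread to both sides of 0, within 0.3 of it.

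Ligases with parts in endosomes, lysosomes or cargo sorting gave 8 targets, none called (against 2.55% of all targets), with a median of 0.07. RNF126, a ligase for mislocalised membrane proteins that also acts in endosomal sorting, had 1013, 803, 1668, 1396 and 2020 counts in the bottom and 1548, 986, 2471, 2045 and 2506 in the top library. Its 5 ratios all lay above 0, from 0.10 to 0.42, with a mean of 0.27 ± 0.15 (SD, n = 5). Its relative RNF115 (BCA2) stood at 0.10 ± 0.16. RNF152, a lysosomal membrane ligase that ubiquitinates the GTPase RagA, stood at 0.22 ± 0.10 at its P2 start, with all 5 guides above 0, and at 0.04 ± 0.18 at P1. RNF34 stood at 0.13 ± 0.11, RNF41 (NRDP1), a ligase for ErbB3, at 0.03 ± 0.14 and RNF11 at -0.04 ± 0.20. RNF26, an ER ligase that holds endosomes near the nucleus, stood at -0.17 ± 0.51, and 1 guide made much of that spread, with 2942 counts in the bottom and 1748 in the top library (-0.95).

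Most MARCH ligases span membranes, and several send surface receptors to lysosomes. The family gave 13 targets with 0 calls, against 2.55% of all targets called either way. Of the 13, 9 lay above 0 and 4 below, and the median was 0.05. MARCH3 had the highest mean, 0.30 ± 0.59 (SD, n = 5), from bottom counts of 1262, 2171, 585, 1180 and 1871 and top counts of 1617, 2729, 1702, 1267 and 2063. A single guide set that mean: its ratio was 1.34, the others were 0.16, 0.13, -0.09 and -0.06, and without it the mean was 0.04. MARCH7 stood at 0.18 ± 0.10 and MARCH10 at 0.14 ± 0.10, both with all 5 guides above 0. MARCH2, which resides in endosomes and the ER, stood at 0.13 ± 0.16 at P1, again with all 5 guides above 0, and at 0.01 ± 0.28 at P2. MARCH6, an ER ligase for sterol enzymes, stood at 0.12 ± 0.28 and MARCH5, of the mitochondrial outer membrane, at 0.12 ± 0.26. MARCH4 stood at 0.05 ± 0.30 and MARCH8, which removes MHC class II and the transferrin receptor from the surface, at 0.03 ± 0.11. MARCH1, the relative of MARCH8 in antigen-presenting cells, stood at -0.02 ± 0.24 and -0.09 ± 0.22 at its pair of starts, and MARCH11 at -0.06 ± 0.40. MARCH9 was the lowest, with 1465, 918, 841, 1968 and 1464 counts in the bottom and 1634, 985, 798, 1728 and 1403 in the top library, ratios from -0.38 to -0.04 and a mean of -0.21 ± 0.14. All 5 of its ratios were below 0 and within the non-targeting range.

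Ligases in the membrane of the ER, where misfolded proteins are marked for degradation, gave 11 targets with a median of -0.02. Of these 0 were called, against 2.55% of all targets. The farthest from 0 were RNF185 at 0.14 ± 0.23 and RNF5 at -0.13 ± 0.20, which are close relatives in ER-associated degradation, and RNF186 at -0.10 ± 0.17. RNF145, a sterol-regulated ligase for HMG-CoA reductase, stood at -0.04 ± 0.18 and -0.09 ± 0.24 at its starts P1 and P2, and RNF139 (TRC8) stood at 0.01 ± 0.28. RNF170, a ligase for the inositol trisphosphate receptor, stood at -0.09 ± 0.27. RNF121, RNF103, RNF183 and RNF180 stood at 0.08, 0.06, 0.05 and -0.02.

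The RING-between-RING ligases, which pass ubiquitin through a cysteine of their own, gave 9 targets with a median of 0.03. There were 0 calls, against 2.55% of all targets. RNF217 stood at 0.15 ± 0.10 with all 5 guides above 0, RNF216 at -0.12 ± 0.19 and RNF144A at 0.11 ± 0.13 at P1 and 0.01 ± 0.31 at P2. RNF31 (HOIP), the catalytic subunit of the linear ubiquitin complex LUBAC, stood at -0.02 ± 0.15. RNF19A, RNF19B, RNF144B and RNF14 stood at 0.07, 0.04, 0.03 and -0.05.

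Ligases of chromatin and DNA damage gave 9 targets with 0 calls (against 2.55% of all targets) and a median of -0.01. RNF4, which ubiquitinates SUMO-modified proteins, had a mean of 0.29 ± 0.50 (SD, n = 5), with bottom counts of 1264, 523, 761, 405 and 1012 and top counts of 1285, 580, 1878, 584 and 1368. Its ratios of -0.17, -0.05, 1.11, 0.33 and 0.24 again held 1 guide far above the rest. RNF20 and RNF40 form the ligase for histone H2B, and both means lay below 0. The RNF20 guides, in H2, had 1059, 3570, 1275, 4924 and 2396 counts in the bottom and 2049, 4615, 1149, 4314 and 2158 in the top library. They split: 3 ratios (-0.50, -0.54 and -0.50) were below the non-targeting range, 1 (0.61) was above it and 1 was 0.02, so that the mean was -0.18 ± 0.50 and the median -0.50. RNF20 was the only member with guides on both sides of that range. RNF40 had ratios of -0.14, 0.25, -0.79, -0.35 and -0.32 and a mean of -0.27 ± 0.37, from 2088, 936, 2913, 3553 and 2210 counts in the bottom and 2173, 1274, 1934, 3196 and 2030 in the top library. RNF2 (RING1B), the ligase of Polycomb complex PRC1 for histone H2A, stood at 0.20 ± 0.32. The DNA damage ligases RNF8 and RNF168 stood at 0.02 ± 0.13 and -0.07 ± 0.08, RNF169 at -0.01 ± 0.11, RNF138 at 0.10 ± 0.12 and RNF111 (Arkadia) at -0.08 ± 0.12.

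Besides RNF10, the ribosome and RNA group held RNF113A, a spliceosome protein, with 1620, 1467, 1505, 771 and 184 counts in the bottom and 1680, 1548, 2129, 1207 and 369 in the top library. Its ratios of -0.14, -0.12, 0.30, 0.45 and 0.80 gave a mean of 0.26 ± 0.40 (SD, n = 5), not called, and the highest ratio came from the guide with the fewest counts. RNF113A lies 99 bases from NDUFA1, a complex I subunit on the opposite strand, which stood at 0.13 ± 0.17 in H1. RNF25, a ligase that acts at stalled ribosomes, stood at 0.05 ± 0.19 at P2 and 0.01 ± 0.21 at P1, and RNF113B at -0.01 ± 0.10. RNF7 (RBX2), the RING subunit of cullin-5 ligases, stood at -0.15 ± 0.30.

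Ligases of signalling and immunity gave 9 targets with 0 calls (against 2.55% of all targets) and a median of -0.03. RNF146, which ubiquitinates ADP-ribosylated axin in the Wnt pathway, had 973, 836, 1492, 2238 and 780 counts in the bottom and 1902, 1338, 1556, 3527 and 798 in the top library. Of its ratios 3 (0.77, 0.48 and 0.46) were above the non-targeting range and 2 (-0.14 and -0.16) were below 0, which gave 0.28 ± 0.41. RNF213, the gene of moyamoya disease susceptibility, stood at 0.14 ± 0.09 at P1, with all 5 guides above 0, and at -0.01 ± 0.20 at P2. RNF166 stood at -0.11 ± 0.15 at P1 and -0.19 ± 0.22 at P2, and RNF125, a ligase for the RNA sensor RIG-I, at -0.11 ± 0.23. RNF135 (Riplet), which activates RIG-I, stood at -0.03 ± 0.24. RNF114 and RNF123 stood at -0.01 and -0.03. The germline genes RNF151, RNF212 and RNF17 stood at 0.02, -0.01 and -0.10, without a call.

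The other 24 RNF genes gave 27 targets with a median of 0.02. RNF214 was the only one called, where either call was made for 2.55% of all targets. Above 0 the farthest were RNF122 at 0.19 ± 0.21, RNF215 at 0.19 ± 0.32 and RNF44 at 0.15 ± 0.14. RNF141 had the closest guides of all 104 targets, from 0.07 to 0.13 with a mean of 0.10 ± 0.02 (SD, n = 5). Counting alone gives each of these guides an SD of 0.032 to 0.058, so their closeness is no measure of precision. The median SD over guides was 0.199 for member targets and 0.220 for all targets.

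The share of targets whose guides agreed in sign was near the background. All 5 guides lay on the side of the mean in 13 member targets (12.5%, 9 above 0 and 4 below), against 10.8% of all targets. Beside RNF167, those above 0 were RNF126, RNF152 at P2, MARCH7, RNF217, RNF213 at P1, MARCH10, MARCH2 at P1 and RNF141. Beside RNF214, those below 0 included MARCH9 and RNF43. Above the non-targeting range of their sublibrary lay 36 member guides (6.92%), against 4.64% of all targeting guides and 6.75% of those in H3. Below it lay 20 (3.85%), against 4.28% of all and 4.77% of those in H3. Of the targets, 7 had at least 2 guides above: RNF167 with 5, RNF10 and RNF146 with 3 each, and RNF13, RNF113A, RNF130 and RNF149 with 2 each. At least 2 guides below were found for RNF214 with 5 and RNF20 with 3.

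For 11 genes the library targets a pair of alternative starts, and no such start was called, against 2.55% of all targets. The means of the starts of a gene differed by a median of 0.09 and at most by 0.26. The widest gap was in RNF187, with -0.14 ± 0.21 at P1 and 0.12 ± 0.18 at P2, and the starts of RNF152 differed by 0.18 and those of RNF213 by 0.15. For RNF207, a gene of heart repolarisation, 3 guides at P2 are listed under RPL22 as well, so these values are not independent. RNF207 stood at -0.05 ± 0.19 at P2 and RPL22, a ribosomal protein, at -0.07 ± 0.08.

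The summed counts of the top and bottom libraries, not scaled for depth, give each guide's abundance in these quartiles after 8 days of growth. Cells between the quartiles are not included. The sum uses the same counts as the comparison of top with bottom, so it is not a separate measurement. The starting pool was not used here, so a low abundance and a low starting share cannot be told apart. Member targets had a median abundance of -0.03 on the log2 scale relative to non-targeting guides, and all targets -0.11. Abundance values for all targets are pooled over the compared sublibraries, while H3 held 96 of the 104 member targets. No abundance share within H3 was computed here. At or below -0.5 lay 6 member targets (5.77%), against 21.1% of all targets. These were RNF223 at -2.06 ± 2.12, RNF4 at -0.94 ± 0.70, RNF150 at -0.85 ± 1.21, RNF213 at P1 at -0.77 ± 1.02, RNF113A at -0.70 ± 1.12 and MARCH2 at P2 at -0.59 ± 0.36 (SD, n = 5 each). RNF223 stands apart through guides with 54 and 58 counts in the bottom library beside another with 1540. Abundance was -0.10 for RNF167, -0.11 for RNF214 and -0.36 for RNF10, so no called member was at or below -0.5.

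Repression can reach a neighbouring gene that starts close by. A RefSeq start was matched for 76 of the 93 genes, and 27 of these have another gene's start within 1000 bases. For 10 genes such a neighbour was itself compared, and 0 of those neighbours were called, against 2.55% of all targets. At that share 0 calls among so few neighbours says little about them, and the other close starts were not compared. For MARCH7 the nearest guides of its neighbour BAZ2B lie 96422 bases from its own, so that value does not cover the nearby start. RNF40 lies 260 bases from C16orf93 (-0.01 ± 0.42), and RNF5 lies 297 bases from AGPAT1 (0.33 ± 0.37 at P1 and 0.01 ± 0.25 at P2).

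Genes linked to these ligases were followed through 13 lists of 121 genes, of which 112 were compared, at 121 targets. Of these targets 6 (4.96%) were higher in top and 3 (2.48%) higher in bottom, against 1.66% and 0.894% of all targets, with a median of 0.08. The lists were chosen with earlier results of these data known, so these shares are no test of the listed genes. The called genes included components of the ubiquitin, E1 and cullin machinery, 1 ER ligase and chromatin factors. RPS27A, which encodes ubiquitin fused to a ribosomal protein, was higher in bottom at -0.87 ± 0.25 (SD, n = 5). UBA1, the main ubiquitin E1, was higher in top at its P1 start (0.61 ± 0.64) and stood at -0.10 ± 0.34 at P2, and P1 lost the call without the guide farthest from 0.

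The list drawn up around RNF7 also holds RBX1 and cullins other than cullin-5. In it NEDD8, the modifier that activates cullins, was higher in top at 1.76 ± 1.09 and CUL2 at 0.71 ± 0.64. The list median was 0.24 over 11 targets. RBX1, the sister RING subunit of RNF7, had a mean of 0.94 ± 1.33 with 3 of 5 guides on that side and was not called. Cullin-5 itself (CUL5), with which RNF7 works, stood at -0.11 ± 0.16. Both calls ended without the guide farthest from 0: NEDD8 then stood at 1.54 with 3 of 4 guides on that side, under the 80% required, and CUL2 at 0.48.

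Of 18 genes of the E2 family listed as RING partners 0 were called, where either call was made for 2.55% of all targets. Above 0 lay 15, and the median was 0.14, with UBE2V1 farthest above at 0.42 ± 0.16 and UBE2W farthest below at -0.33 ± 0.27. Of 18 other listed RING ligases only SYVN1 (HRD1), the central ligase of ER-associated degradation, was called, at 0.62 ± 0.36 in top. MYLIP, the ligase for the LDL receptor, was farthest below 0 at -0.28 ± 0.23. VCP, the ATPase that extracts ubiquitinated proteins from the ER and a partner of RNF5 and RNF185, had a mean of 1.07 ± 1.08, but with 3 of 5 guides on that side it was not called.

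Among chromatin partners, PHC2 of PRC1 was higher in top at 0.55 ± 0.76, L3MBTL2, listed with RNF8 and RNF168, at 0.55 ± 0.28, and LEO1 of the PAF complex, listed with RNF20 and RNF40, was higher in bottom at -0.54 ± 0.38. All 3 lost the call without the guide farthest from 0, and PHC2 then stood at 0.16. The farthest uncalled PRC1 partner was PCGF1 at 0.38 ± 0.26. The remaining lists held no call: BAG6, with which RNF126 works, stood at 0.38 ± 0.65, TAX1BP1 at 0.22 ± 0.20, CYLD at 0.17 ± 0.28, AXIN1 at -0.21 ± 0.35 and LGR6 at 0.40 ± 1.17 at P1.

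Other families of the ubiquitin system are set beside these under the same rule, which called 1.66% of all targets in top and 0.894% in bottom. The UBE2 family of E2 enzymes had 0 of 35 targets called and a median of 0.10. The USP deubiquitinases had 1 of 58 called in top (1.72%) and 0 in bottom, with a median of 0.01, and the TRIM ligases had 0 of 73 called and a median of -0.00. With 1 library per group these differences between families were not tested.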

How the data were processed

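Guide counts were deposited by the authors as whole numbers per guide, with no normalization, for 14 libraries in 14 groups (sublibraries H1 to H7, top and bottom quartile, grouped by the titles in the labels). Bowtie is named per the submitters' processing notes, without a version. The sources used here do not give the build of the guide positions or further counting settings. Per the labels' protocols, transduction was at a multiplicity of about 0.2, puromycin (0.75 µg/ml) was kept on for 3 days, the reaction (Amplex UltraRed at 100 µM, hydrogen peroxide at 50 µM) took 1 minute, and 27 PCR cycles preceded sequencing. The PCR reads carry no molecular identifiers and are not independent, so the counting SDs cover counting error only.

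H4 was not compared, since its top table holds 35 complete lines, and its bottom table has 0 guides that fit the symbol rule. In the other 12 libraries a pseudocount of 1 was added to each count before scaling to library totals, log2(top/bottom) was set to 0 at the non-targeting median, and guides with at least 50 counts in either library were averaged over targets with at least 3 guides. The call rule needs a mean of at least 0.5 from 0 with 80% of guides on its side. edgeR's quasi-likelihood test was not used, because no residual degrees of freedom are left with 1 library per group. The rule was tested on simulated data. There every guide of a changed target had the same effect, so the simulation does not cover targets whose guides disagree. Values were computed with Python 3.11.15, numpy 2.4.6, pandas 2.3.3, R 4.3.3 and edgeR 4.0.16 (trimmed mean of M-values, TMM, in an alternative).

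The members, the 11 role lists, the 13 pathway lists and the rules were chosen with earlier results of these data known. Named genes were the called members, the MARCH targets, in each role list up to 3 members farthest from 0, the 3 nearest the threshold on each side, and in each pathway list the called genes and the 1 farthest from 0. Other members are given to account for whole groups, and some genes that these rules take are not reported here. UBA1 at P2, RBX1, VCP, CUL5 and the neighbouring genes were added after their values were seen. Upstream stretches of at most 150 bases and starts come from RefSeq, GRCh38.p14.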

Additional observations from a re-analysis of the deposited data

How the results depend on the processing

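The results were recomputed under 14 alternatives, of which 9 change the values and 5 the call rule. RNF167 was called under all 14 (1.20 to 1.35) and RNF214 under 13 (-0.81 to -0.68). RNF10 was called under 10. Called members in top fell from 2 to 1 with the median over guides, without the guide farthest from 0, with a threshold of 1 and with all guides required on the side of the mean, each time through the loss of RNF10. Called members in bottom fell from 1 to 0 with a threshold of 1. Over all targets the calls were 300 in top and 162 in bottom, 150 and 73 without the guide farthest from 0 (where all 4 remaining guides must agree), 697 and 472 with a threshold of 0.3, and 87 and 23 with a threshold of 1. Centring on all guides and TMM factors gave 292 and 170 each. The member median stayed between 0.01 and 0.03, 0 members outside the calls were called under any alternative, and 0 mean values changed direction among those called. Of the pathway genes, SYVN1 and RPS27A lost the call at a threshold of 1 alone. No paired analysis was possible because each group has 1 library, and for the same reason no replicate could be left out. At this depth counting alone gave an SD of 0.0233 for the median member mean, and the median SD over the guides of a member target was 0.199. The spread between sorts is not measured in these libraries.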
